A study of Mus musculus with 9 samples.

Results

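The genes described here encode 10 receptor chains through which mast cells sense cytokines: Il1rl1 and Il1rap (the IL-33 receptor), Il3ra, Csf2rb and Csf2rb2 (the IL-3 receptor and the beta chains it shares), Il4ra, Il2rg, Il2ra and Il9r (the IL-4, IL-2 and IL-9 receptors) and Ifngr1 (the interferon-gamma receptor). They were chosen by name, with earlier results of these data known. All 10 were found among the 47643 genes of the count table and passed the filter on low counts. They were measured in bone marrow-derived mast cells (BMMCs) grown from C57BL/6 marrow for at least 4 weeks in medium with 30% WEHI-3-conditioned medium, a source of IL-3, and 20% serum. Control cells were not stimulated, the IgE+BSA group was sensitized with DNP-specific IgE and stimulated with DNP-BSA, which cross-links the high-affinity IgE receptor, and the IgE+BSA+Luteolin group also received luteolin, a plant flavone. The labels give luteolin at 10 uM for 24 h, and its order relative to the stimulation is not clear in the sources used here. Each group had 3 libraries of stranded mRNA. Neither the number of mice nor separate cultures are stated, so the p-values measure only the spread between these libraries, which may be technical.

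ST2, the product of Il1rl1, pairs with the accessory chain IL1RAP to bind IL-33, an alarmin released by damaged epithelium, and signals through MyD88 and TRAF6. IL-3, GM-CSF and IL-5 each bind an alpha chain of their own, and the signal passes through a common beta chain. Mice carry a second beta chain gene, Csf2rb2, whose product serves IL-3 alone. The common gamma chain, encoded by Il2rg, completes the receptors for IL-2, IL-4 and IL-9. These class I receptors have no kinase domain and signal through JAK kinases and STAT factors, and IL-3 in particular keeps cultured mast cells alive.

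Total counts were between 9515004 and 24605689 per library. Levels are in CPM, the counts of a library rescaled to a common total with TMM factors, and a floor of 3 counts stood at 0.122 to 0.290 CPM, which covers counting error only. None of 13 mast cell markers was at 0 counts in any library, and their summed level was 58618 to 89050 CPM. T cell markers summed to at most 0.600 CPM. Control replicate 1 stood apart from its group. Over log2 CPM its correlation with Control replicates 2 and 3 was 0.944, against 0.991 between those libraries and 0.991 to 0.994 within the other groups. The 8 neutrophil markers summed to 269.9 CPM in Control replicate 1 and to 7.45 and 5.89 CPM in Control replicates 2 and 3, against 192 to 212 CPM in IgE+BSA and 223 to 260.3 CPM in IgE+BSA+Luteolin. Of 4 basophil markers Mcpt8 showed a similar split, at 432 CPM in Control replicate 1 and 21.8 and 18.7 CPM in Control replicates 2 and 3. The others did not follow it, with Cd200r3 at 688, 1044 and 1022 CPM, and the list summed to 1879, 1717 and 1653 CPM. The root-mean-square distance of Control replicate 1 over log2 CPM was 0.73 from each of the other Control libraries and 0.45 to 0.46 from the IgE+BSA+Luteolin libraries. From the IgE+BSA libraries it was 0.54 to 0.62. Control replicates 2 and 3 stood farther from the stimulated libraries, at 0.64 to 0.77. The labels do not tell whether Control replicate 1, or Control replicates 2 and 3, were prepared apart or carry the wrong label. This was not tested. Receptor counts and the named genes in IgE+BSA against Control are therefore given with all Control libraries, without Control replicate 1 and against it alone. None of these choices was shown to be the right one. In bulk RNA, fewer cells of a type and less RNA per cell cannot be told apart.

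Per kilobase of exon, the beta chains and ST2 were the most abundant of the 10 transcripts, and the accessory chain of ST2 was the least. In IgE+BSA, mean levels were 1135 CPM per kilobase for Csf2rb2, 768 for Il1rl1 and 406 for Csf2rb. Il4ra (120), Il2rg (108) and Il2ra (97.8 CPM per kilobase) formed a middle range in which Il4ra overlapped Il2rg and Il2rg overlapped Il2ra between libraries. Il3ra followed at 22.3, Ifngr1 at 13.0, Il9r at 4.58 and Il1rap at 0.767 CPM per kilobase. The order was the same in all 3 groups, except that Il2ra stood above Il2rg in Control, where the libraries of the pair overlapped. In IgE+BSA+Luteolin no neighbours in the order overlapped. ST2 and its accessory chain were thus far apart in transcript level, as were the IL-3 alpha chain and its beta chains.

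**Figure D1:**
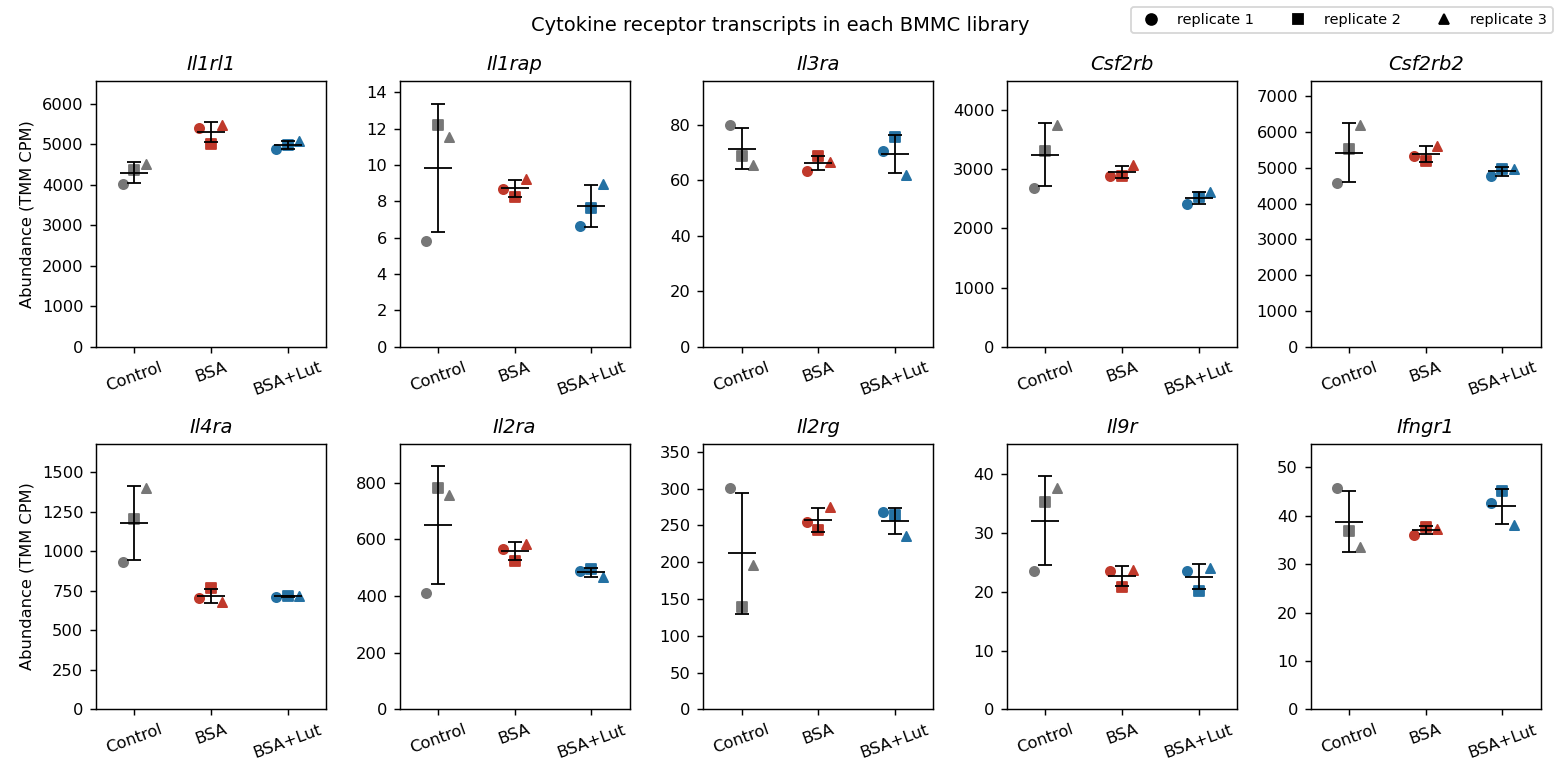
Abundance of the 10 receptor transcripts in CPM (vertical axes, linear, from 0) in each of the 9 libraries, with symbols for replicate numbers, the mean as a horizontal line and 1 SD as error bars (n = 3; BSA stands for IgE+BSA and BSA+Lut for IgE+BSA+Luteolin). Control replicate 1 is the highest or the lowest Control library for each of the 10 transcripts, and the stimulated groups are tighter than Control for most chains.

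The IL-3 receptor beta chains are close copies, which matters for reading their counts. Csf2rb (ENSMUSG00000071713, + strand, chr15:78325752-78353847 in GRCm38) and Csf2rb2 (ENSMUSG00000071714, - strand, chr15:78282507-78305721) lie beside each other on chromosome 15. Their coding sequences, 2688 and 2634 bases long in GENCODE M21, share 2503 of 2628 aligned bases (95.2%), and the longest identical run is 242 bases. Of all 100-base windows of the Csf2rb2 coding sequence, 11.3% occur unchanged in Csf2rb, and of 50-base windows 26.6%. The stretch below is coding bases 308 to 397 of Csf2rb and 311 to 400 of Csf2rb2. No stretch of its length aligned without gaps holds more differing bases, so it is not typical of the coding sequence. Capitals mark its 16 differing bases.
Csf2rb: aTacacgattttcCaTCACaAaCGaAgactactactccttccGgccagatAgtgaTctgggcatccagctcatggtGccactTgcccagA
Csf2rb2: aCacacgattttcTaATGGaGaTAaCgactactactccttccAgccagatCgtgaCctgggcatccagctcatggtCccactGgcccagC
How reads that fit both copies were counted is not given in the sources used here, so the level of each beta chain is uncertain by the share of such reads.

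RefSeq start-site windows (GRCm38.p6) were found for 9 of the 10 genes, and Csf2rb had no entry. The 250 bases before each start were searched on both strands for GATAA (the core bound by GATA factors, TTATC on the other strand), TTCNNNGAA (bound by STAT factors), TGANTCA (AP-1) and GCGTGGGCG (EGR). Windows of 4 genes are shown: the upstream start of Il1rl1, as the most abundant chain outside the beta chains, Csf2rb2 and Il2ra because their transcripts were lower with luteolin, and Il9r for the largest number of matches. Capitals mark the GATA and STAT matches, none of which overlap. The windows are Il1rl1, + strand, chr1:40429320-40429569, Csf2rb2, - strand, chr15:78305722-78305971, Il9r, - strand, chr11:32200280-32200529, and Il2ra, + strand, chr2:11642542-11642791.
Il1rl1: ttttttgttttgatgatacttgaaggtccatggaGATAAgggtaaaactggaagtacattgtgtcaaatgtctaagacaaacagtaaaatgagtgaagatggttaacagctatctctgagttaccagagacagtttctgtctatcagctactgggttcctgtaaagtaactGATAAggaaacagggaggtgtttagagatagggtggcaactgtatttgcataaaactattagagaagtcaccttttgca
Csf2rb2: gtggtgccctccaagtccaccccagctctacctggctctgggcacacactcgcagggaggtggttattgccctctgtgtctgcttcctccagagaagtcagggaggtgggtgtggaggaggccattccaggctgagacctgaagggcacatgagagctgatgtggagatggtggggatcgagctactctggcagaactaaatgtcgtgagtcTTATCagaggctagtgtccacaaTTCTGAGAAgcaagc
Il9r: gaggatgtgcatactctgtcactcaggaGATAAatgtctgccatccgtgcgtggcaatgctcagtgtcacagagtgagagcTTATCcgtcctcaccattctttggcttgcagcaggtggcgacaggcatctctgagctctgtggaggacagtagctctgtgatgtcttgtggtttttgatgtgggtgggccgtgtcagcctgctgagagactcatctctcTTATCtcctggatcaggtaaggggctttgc
Il2ra: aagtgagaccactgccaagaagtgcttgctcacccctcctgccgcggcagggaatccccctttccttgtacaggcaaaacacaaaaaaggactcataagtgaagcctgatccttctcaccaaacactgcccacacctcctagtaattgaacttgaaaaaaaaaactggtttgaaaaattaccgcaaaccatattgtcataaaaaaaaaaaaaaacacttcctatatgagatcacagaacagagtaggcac
The Il9r window held 3 GATA matches, this Il1rl1 window 2, and the Csf2rb2 window 1 GATA and 1 STAT match. A second annotated Il1rl1 start held 1 GATA match, and the windows of the other 6 genes, Il2ra included, held none of the 4 motifs. Among 32851 windows of the same length, 22.6% held the GATA motif, 7.02% the STAT motif, 6.75% AP-1 and 0.536% EGR. These matches are a description of letters in these windows.

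The first comparison, IgE+BSA against Control, asks which receptor transcripts differed after cross-linking of the IgE receptor. With all 3 Control libraries, none of the 10 passed the threshold by edgeR with TMM factors, and the lowest value belonged to Il4ra, which DESeq2 called (adjusted p = 0.000865). Without Control replicate 1, Il4ra, Il9r, Il2ra, Il1rap and Csf2rb were lower and Il2rg and Il1rl1 higher in IgE+BSA. With Control replicate 1 as the lone Control library, Il1rap, Il2ra and Il2rg passed the threshold in the opposite direction. Il4ra was lower and Il1rl1 higher in IgE+BSA under each choice of Control libraries, although neither passed the threshold with all of them by edgeR with TMM factors. Il4ra passed it in edgeR with all 9 libraries in 1 fit, a gene length correction, library size alone, upper-quartile factors or no filter on low counts. It did not in edgeR with the replicate number as a block or with size factors of DESeq2 (adjusted p = 0.143 and 0.0563). Nor did it with any single library other than Control replicate 1 left out.

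By edgeR's quasi-likelihood test with Benjamini-Hochberg adjustment over 11560 genes, 0 of 10 receptor transcripts were called, against 3.27% of all genes tested. At an unadjusted p under 0.05 edgeR gave 3 (Il1rl1, Il4ra and Il9r), against 20.4% of all genes, and DESeq2 and limma gave 3 each, against 22.3% and 20.6%. After adjustment DESeq2 called 1 (Il4ra), against 10.6% of all genes, and limma 0. The libraries of the groups did not overlap for 2 of 10 (Il1rl1 and Il4ra), against 28.7% of all genes. The median size of the log2 fold change was 0.19 over the receptor chains and 0.21 over all genes tested. Of the genes called over the whole table, 260 were higher and 118 lower with TMM factors, against 173 and 295 with library size alone, where the median log2 fold change of all genes moved from 0.02 to -0.15. Il1rl1 (0.12) stayed higher and Il4ra (-0.90) lower under that scaling.

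Il4ra encodes the alpha chain that binds IL-4 and, with another chain, IL-13. Its level was 929, 1206 and 1400.2 CPM in Control replicates 1, 2 and 3, 706, 769 and 680.2 CPM in IgE+BSA, and 713, 715 and 716 CPM in IgE+BSA+Luteolin. All 6 stimulated libraries lay below all 3 Control libraries. The log2 fold change of IgE+BSA against Control was -0.71 (SE 0.16, adjusted p = 0.0625 by edgeR), a ratio of 0.609. It was -0.91 without Control replicate 1 and -0.39 against that library alone, and edgeR called it in both cases (adjusted p = 8.19e-07 and 0.00361).

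Il1rl1 was at 4013, 4372 and 4507 CPM in Control and at 5413, 5010.0 and 5469 CPM in IgE+BSA. The groups did not overlap, with a log2 fold change of 0.30 (SE 0.11, adjusted p = 0.174 by edgeR). It was 0.20 without Control replicate 1 (adjusted p = 0.0291 by edgeR) and 0.38 against that library alone (adjusted p = 0.00413 by edgeR). Il1rap, which ST2 needs for signaling, was at 5.79 CPM in Control replicate 1 and at 12.2 and 11.5 CPM in the other Control libraries. The IgE+BSA libraries, at 8.68, 8.25 and 9.22 CPM, lay between them, and the log2 fold change of -0.17 (adjusted p = 0.793 by edgeR) became -0.49 without Control replicate 1 and 0.57 against it alone.

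Among the chains of the common gamma family, Control replicate 1 differed from the other Control libraries by more than the IgE+BSA libraries differed among themselves. Il2ra, the IL-2 receptor alpha chain CD25, was at 411, 781 and 758 CPM in Control and at 568, 524 and 584 CPM in IgE+BSA. Il2rg was at 301, 139 and 196 CPM in Control and at 254, 243 and 275 CPM in IgE+BSA. For each of these genes the IgE+BSA libraries lay between Control replicate 1 and the others. The log2 fold change of Il2ra was -0.22 with all libraries, -0.51 without Control replicate 1 and 0.42 against it alone, and that of Il2rg was 0.27, 0.56 and -0.24. Il9r, which binds IL-9, a mast cell growth factor, was at 23.5, 35.2 and 37.6 CPM in Control and at 23.6, 20.8 and 23.7 CPM in IgE+BSA. Its Control replicate 1 value lay within the IgE+BSA range. The log2 fold change of Il9r was -0.50 (SE 0.19, adjusted p = 0.189 by edgeR) and -0.74 without that library, where edgeR called it (adjusted p = 3.55e-05). Against Control replicate 1 alone it was -0.07 (adjusted p = 0.697 by edgeR).

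The IL-3 receptor alpha chain and the beta chains showed smaller differences. Csf2rb was at 2682, 3314 and 3745 CPM in Control and at 2889, 2895 and 3071 CPM in IgE+BSA, with a log2 fold change of -0.14 (adjusted p = 0.626 by edgeR). It was -0.31 without Control replicate 1 (adjusted p = 0.00355 by edgeR) and 0.12 against that library alone. Csf2rb2 was at 4564, 5519 and 6189 CPM in Control and at 5323, 5194 and 5619.8 CPM in IgE+BSA, with a log2 fold change of -0.01 (95% interval -0.33 to 0.30). Il3ra was at 79.7, 68.8 and 65.4 CPM in Control and at 63.4, 68.5 and 66.6 CPM in IgE+BSA (log2 fold change -0.11, 95% interval -0.39 to 0.16). The groups overlapped for all 3 genes. Ifngr1, the ligand-binding chain for interferon gamma, was at 45.7, 36.9 and 33.6 CPM in Control and at 36.1, 37.8 and 37.4 CPM in IgE+BSA (log2 fold change -0.07, 95% interval -0.41 to 0.27). Without Control replicate 1 the log2 fold changes of Csf2rb2, Il3ra and Ifngr1 were -0.17, -0.07 and 0.03, and edgeR called none of them. Against that library alone they were 0.22, -0.29 and -0.32, and edgeR called Il3ra and Ifngr1 (adjusted p = 0.0202 and 0.0224).

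Without Control replicate 1, edgeR called 7 of the 10 receptor transcripts, and it called 45.0% of all genes tested. With Control replicate 1 as the only Control library it also called 7, against 42.3% of all genes. The second setting, chosen after the data were seen, has 1 library in the group and takes its spread from IgE+BSA. Leaving out Control replicate 2 or 3 left 0 called. Sums of some marker lists moved with this choice. Those of the macrophage and monocyte markers moved less, at 339, 336 and 324 CPM in Control replicates 1, 2 and 3. In Control replicates 1, 2 and 3 the mast cell markers summed to 89050, 58771 and 58618 CPM and the eosinophil markers to 37.4, 13.0 and 10.1 CPM, beside the neutrophil sums above. The eosinophil granule gene Prg2 had 648, 1 and 0 counts and Epx 35, 0 and 0, while Siglecf went the other way at 4.14, 12.9 and 10.1 CPM. The part of these markers in the receptor values was not tested.

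**Figure D2:**
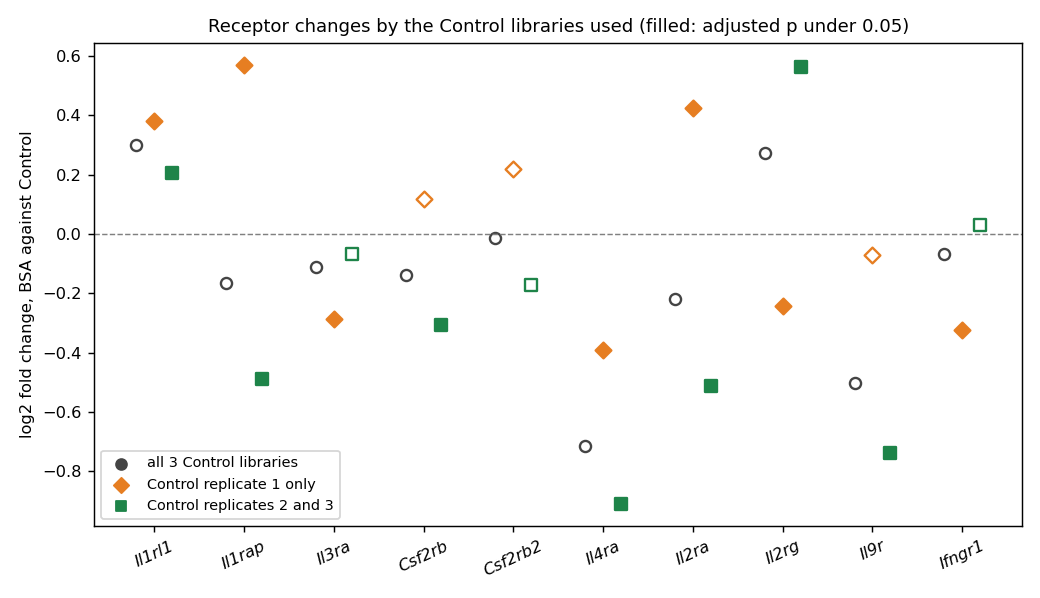
Log2 fold change of IgE+BSA against Control (vertical axis) for the 10 receptor transcripts with all 3 Control libraries (circles), Control replicate 1 alone (diamonds) and Control replicates 2 and 3 (squares). Filled symbols passed an adjusted p under 0.05 by edgeR, which 0 did with all libraries and 7 did with Control replicates 2 and 3. Il1rap, Csf2rb, Csf2rb2, Il2ra, Il2rg and Ifngr1 lie on opposite sides of 0 in the subsets.

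The second comparison, IgE+BSA+Luteolin against IgE+BSA, asks what luteolin changed in stimulated cells and does not use Control. Csf2rb, Csf2rb2 and Il2ra were lower with luteolin, by small amounts. Il4ra, Il2rg and Il9r differed by less than 0.01 on the log2 scale, and Il1rl1 and Il3ra by less than 0.10. Ifngr1 was higher in each luteolin library but did not pass the threshold. The ligand genes Csf2, Il4 and Il13 fell much further than any receptor chain.

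Of the 10 receptor transcripts, edgeR called 3, all of them lower, against 40.0% of all genes tested in either direction and 21.9% in the lower direction. DESeq2 called 3 and limma 2, against 38.3% and 40.1% of all genes. The groups did not overlap for 4 of 10 (Csf2rb, Csf2rb2, Il2ra and Ifngr1), against 50.3% of all genes. The median size of the log2 fold change was 0.11 over the receptor chains and 0.21 over all genes.

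Csf2rb was at 2406, 2532 and 2610.2 CPM in IgE+BSA+Luteolin, below the lowest IgE+BSA library (2889 CPM). Its log2 fold change was -0.23 (SE 0.05, 95% interval -0.34 to -0.12, adjusted p = 0.00255 by edgeR), a ratio of 0.854, and it was called whichever library was left out and, at -0.15, with a gene length correction. Csf2rb2 was at 4764, 4970.0 and 4969 CPM, again below every IgE+BSA library, with a log2 fold change of -0.13 (SE 0.05, 95% interval -0.24 to -0.03, adjusted p = 0.0458 by edgeR). Its call was lost without IgE+BSA replicate 1 or 3 or IgE+BSA+Luteolin replicate 1 or 2 (log2 fold changes -0.10 to -0.15). Il2ra was at 489, 497 and 466 CPM, below every IgE+BSA library, with a log2 fold change of -0.20 (SE 0.06, 95% interval -0.32 to -0.08, adjusted p = 0.00891 by edgeR), and lost its call without IgE+BSA replicate 1 (adjusted p = 0.0517 by edgeR).

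These 3 genes stayed lower under every scaling, but their calls depended on it. Scaled by library size alone, the median of all genes moved to 0.13 from 0.02 on the log2 scale, and the genes called over the whole table went from 2097 higher and 2527 lower to 3856 and 1767. Csf2rb, Il2ra and Csf2rb2 were then at -0.11, -0.09 and -0.02 and none was called, while Ifngr1 (0.29) and Il3ra (0.18) were called higher. Relative to that median they stood at -0.24, -0.22 and -0.15, as they did with TMM factors. In a fit that also held the Control libraries, 0 of the 10 were called by edgeR, since the spread was then shared with Control.

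Il1rl1 was at 4874, 4970.4 and 5076 CPM in IgE+BSA+Luteolin, overlapping IgE+BSA. Its log2 fold change was -0.09 (95% interval -0.20 to 0.02, adjusted p = 0.177 by edgeR), with a sign that turned with library size alone (0.02) and a value of -0.02 with a gene length correction. Il1rap, at 6.67, 7.65 and 8.95 CPM, had a log2 fold change of -0.17 with a wide interval (-0.48 to 0.15). It was -0.28 without IgE+BSA+Luteolin replicate 3 and -0.08 without replicate 1 of that group, and its sign turned with a gene length correction (0.01). Il4ra, Il2rg and Il9r had log2 fold changes of -0.005, -0.005 and -0.007, whose signs turned with library size alone (0.11 for each), and for Il4ra also with a gene length correction (0.03). Their 95% intervals were -0.12 to 0.11, -0.14 to 0.13 and -0.21 to 0.20 with TMM factors. With library size alone the intervals of Il4ra and Il2rg reached 0.22 and 0.24, and with a gene length correction that of Il2rg ran from -0.25 to -0.0002. Levels with luteolin were 268, 264 and 236 CPM for Il2rg and 23.5, 20.2 and 24.1 CPM for Il9r, overlapping IgE+BSA. Il3ra was at 70.5, 75.4 and 61.8 CPM (log2 fold change 0.07, 95% interval -0.09 to 0.23), and its sign too turned with a gene length correction (-0.03). Ifngr1 was at 42.6, 45.1 and 38.1 CPM, all above the IgE+BSA libraries, with a log2 fold change of 0.18 (SE 0.08, adjusted p = 0.0742 by edgeR), which a gene length correction brought to 0.08 (adjusted p = 0.418 by edgeR).

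Sums of some marker lists differed between these groups as well. Those of the macrophage and monocyte markers overlapped, at 357 to 387 CPM in IgE+BSA and 360 to 394 CPM in IgE+BSA+Luteolin. The dendritic cell, B cell and erythroid sums overlapped too, and in these lists edgeR called 0 genes. The 13 mast cell markers summed to 63752 to 70995 CPM in IgE+BSA and to 75393 to 87086 CPM in IgE+BSA+Luteolin, with 7 called higher and 3 lower by edgeR. Of the 8 neutrophil markers 2 were called higher. Of the 4 basophil markers 3 were called higher by edgeR, and their sums, 1448 to 1506 CPM in IgE+BSA and 1612 to 1757 CPM in IgE+BSA+Luteolin, did not overlap. Of 3 eosinophil markers, Siglecf was called lower (9.99 to 4.72 CPM) and Prg2 and Epx were not called. T cell markers were at or near 0 in both groups, at no more than 0.600 CPM in sum, beside 466 to 584 CPM of Il2ra, which also marks activated T cells. The part of these markers in the receptor values was not tested.

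**Figure D3:**
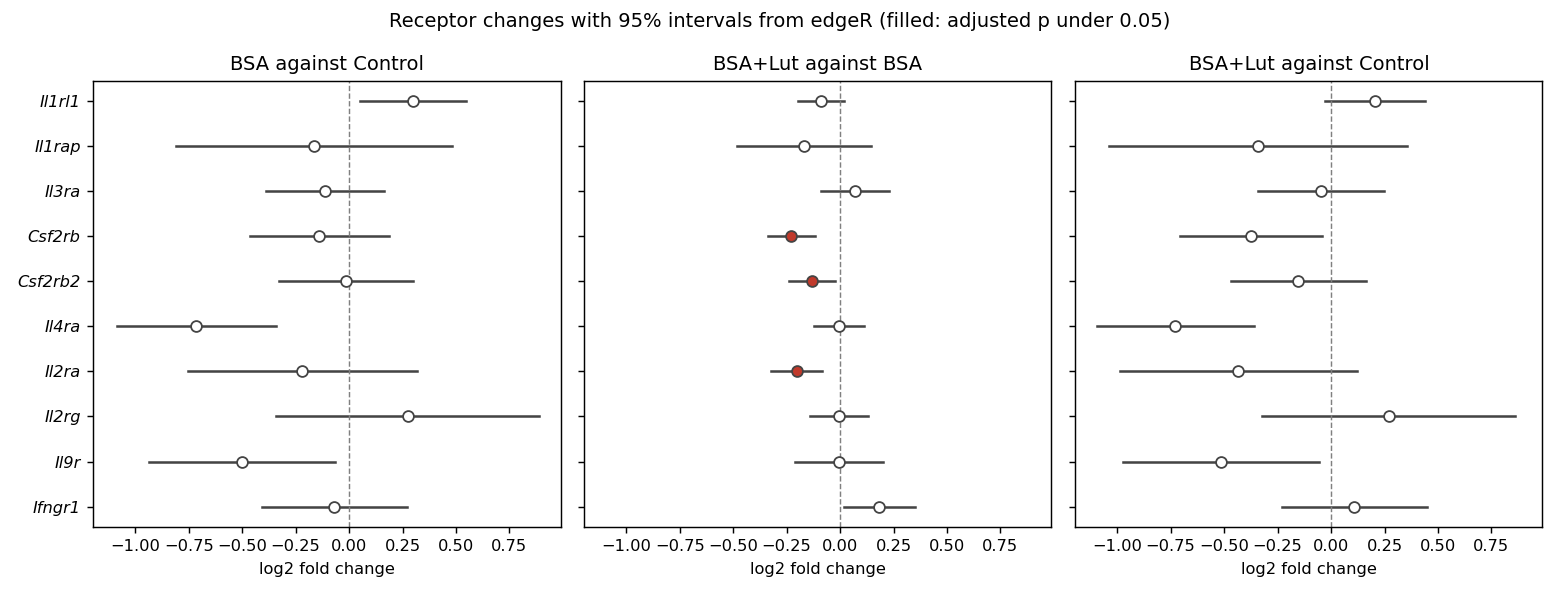
Log2 fold changes (horizontal axes) of the 10 receptor transcripts in the 3 comparisons, with 95% intervals from edgeR as bars (BSA stands for IgE+BSA and BSA+Lut for IgE+BSA+Luteolin). Only Csf2rb, Csf2rb2 and Il2ra in the middle panel passed the threshold (filled), with TMM scaling; intervals are wider in both comparisons with Control.

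The third comparison, IgE+BSA+Luteolin against Control, asks how stimulated, luteolin-treated cells differed from unstimulated cells. It shares its libraries with the comparisons above, so its values are not independent of them. None of the 10 passed the threshold by edgeR, against 3.04% of all genes. At an unadjusted p under 0.05 edgeR gave 3 (Csf2rb, Il4ra and Il9r), against 22.9% of all genes, and DESeq2 gave 4 and limma 3, against 25.5% and 22.9%. After adjustment DESeq2 called 1 (Il4ra), against 11.9% of all genes, and limma 0. The groups did not overlap for 3 of 10 (Il4ra, Il1rl1 and Csf2rb), against 28.5% of all genes.

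Il4ra was again the lowest, with a log2 fold change of -0.73 (SE 0.16, adjusted p = 0.0588 by edgeR), beside -0.71 in IgE+BSA. Il9r followed at -0.51, Il2ra at -0.43, Csf2rb at -0.37 and Il1rap at -0.34, and on the other side Il2rg stood at 0.27, Il1rl1 at 0.21 and Ifngr1 at 0.11. Csf2rb2 (-0.15) and Il3ra (-0.05) were nearest to 0 on the lower side. Without Control replicate 1, edgeR called 9 of the 10, against 60.0% of all genes, the exception being Il3ra. Against Control replicate 1 alone it called 3, against 21.2% of all genes. These were Il1rl1 (0.31), Il4ra (-0.38) and Il2ra, which was then higher (0.24).

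The share of beta chain counts on Csf2rb2 separated all 3 groups. Csf2rb2 held 62.98%, 62.48% and 62.30% of the Csf2rb and Csf2rb2 counts in Control, with 95% Wilson intervals of 62.7% to 63.2%, 62.2% to 62.8% and 62.1% to 62.5%. It held 64.82% (64.6% to 65.0%), 64.21% (64.0% to 64.4%) and 64.67% (64.4% to 64.9%) in IgE+BSA. It held 66.45% (66.2% to 66.7%), 66.25% (66.0% to 66.5%) and 65.56% (65.3% to 65.8%) in IgE+BSA+Luteolin. Every IgE+BSA library lay above every Control library, Control replicate 1 included, and every luteolin library above every IgE+BSA library. The means were 62.6% ± 0.352, 64.6% ± 0.314 and 66.1% ± 0.465 (SD, n = 3 each).

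The differences were 1.98 percentage points between IgE+BSA and Control, 1.52 between IgE+BSA+Luteolin and IgE+BSA, and 3.50 between IgE+BSA+Luteolin and Control. The exact two-sided permutation test gave p = 0.1 for each, which is the smallest value that 3 libraries against 3 can give. With each library left out in turn they ranged from 1.84 to 2.18, from 1.34 to 1.78 and from 3.32 to 3.76 points. The share does not depend on the scaling of a library as a whole, but no gene length correction was applied to it. With that correction, the log2 fold change under luteolin of Csf2rb2 (4740 bases of exon) exceeded that of Csf2rb (7277 bases) by 0.008, against 0.096 without it. For IgE+BSA against Control the excess was 0.16 with it and 0.13 without, and for IgE+BSA+Luteolin against Control 0.18 and 0.22. The share also rests on how the authors' counting treated reads common to both copies. The intervals cover counting error only.

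**Figure D4:**
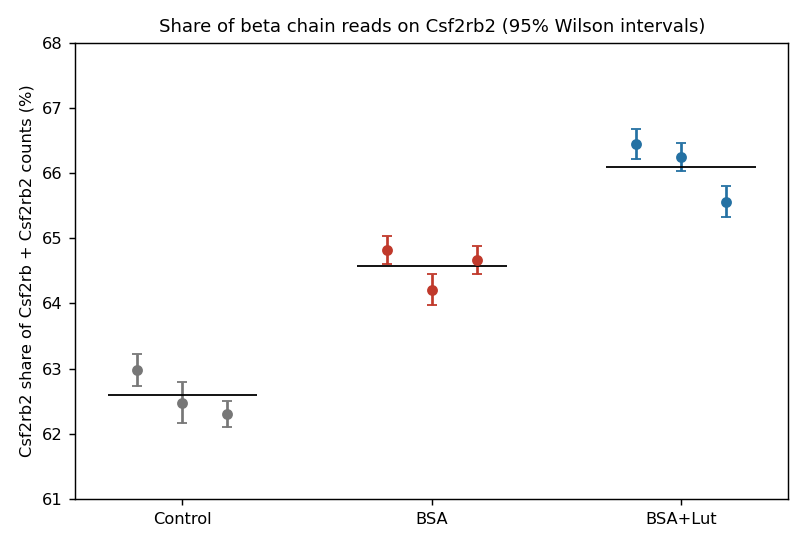
Share of Csf2rb2 in the summed Csf2rb and Csf2rb2 counts (vertical axis, percent, from 61 to 68) in each library, with 95% Wilson intervals as bars and group means as lines (BSA stands for IgE+BSA and BSA+Lut for IgE+BSA+Luteolin). The groups do not overlap, with means of 62.6%, 64.6% and 66.1%.

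The ligand genes Csf2, Il4 and Il13 were higher after stimulation and lower with luteolin, by more than any receptor chain in either comparison, and 4 of 9 ligand genes passed the filter. Csf2, which encodes GM-CSF, had 88 counts in Control replicate 1 and 1 and 3 in the other Control libraries, and was at 58.0 CPM in IgE+BSA and at 4.14 CPM in IgE+BSA+Luteolin. Its log2 fold change with luteolin was -3.81 (SE 0.10, adjusted p = 9.78e-15 by edgeR), a ratio of 0.0713. Il4 rose from 27.2 to 93.5 CPM upon stimulation (log2 fold change 1.78, adjusted p = 0.00117 by edgeR) and fell to 22.9 CPM with luteolin (log2 fold change -2.02, adjusted p = 4.80e-13 by edgeR). Il13 rose from 42.7 to 580 CPM and fell to 128 CPM (log2 fold changes 3.75 and -2.18). Csf2 also rose upon stimulation (log2 fold change 5.14, adjusted p = 0.0334 by edgeR).

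The size of these rises moved with Control replicate 1, and edgeR called Csf2, Il4 and Il13 higher under each choice of Control libraries. For Il13, at 73.8 CPM in Control replicate 1 and 28.8 and 25.3 CPM in the others, the log2 fold change was 4.38 without that library and 2.95 against it alone. For Il4 it was 1.86 and 1.58. For Csf2 it was 3.74 against Control replicate 1 alone. The other Control libraries held 4 Csf2 counts together and the IgE+BSA libraries 3630, a depth-scaled ratio of IgE+BSA to Control of 502 (95% exact interval 196 to 1843, counting error only).

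Il3 was an exception among the ligands. It had 7, 0 and 0 counts in Control, 34, 32 and 66 in IgE+BSA and 46, 37 and 33 in IgE+BSA+Luteolin, so its levels with and without luteolin overlapped (log2 fold change -0.28, 95% interval -0.98 to 0.43). All 6 stimulated libraries lay above the Control libraries, with an adjusted p of 0.0631 by edgeR in IgE+BSA. It was 0.000102 without Control replicate 1 and 0.00992 against that library alone by edgeR. Il33 (0 to 10 counts per library), Il5 (0 to 4), Il2 (0 to 6), Il9 (0 to 26) and Ifng (0 to 1) stayed below the filter. Il33 had 3, 3 and 10 counts in IgE+BSA, above the 0 to 2 counts of each library in Control and IgE+BSA+Luteolin, with no test here.

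Partner chains of the 10 receptors were looked up after their values were seen. Csf2ra, the GM-CSF receptor alpha chain, was lower with luteolin, at 26.6 CPM in IgE+BSA and 20.2 CPM in IgE+BSA+Luteolin (log2 fold change -0.40, adjusted p = 0.00594 by edgeR). Ifngr2, the partner of Ifngr1, was higher, at 15.6 and 20.5 CPM (log2 fold change 0.40, adjusted p = 0.00419 by edgeR). In Control replicates 1, 2 and 3, Ifngr2 was at 22.9, 21.5 and 24.8 CPM and Csf2ra at 23.9, 28.9 and 28.2 CPM. Il2rb, the IL-2 receptor beta chain, had 1 to 14 counts per library, and Il13ra1, the partner of Il4ra in the IL-13 receptor, 2 to 16. Il5ra had 11 to 57 counts. Thus Il2ra and Il2rg were abundant where Il2rb was near the floor.

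Of 44 other cytokine receptor chains, 27 passed the filter, and with luteolin 4 were higher and 8 lower by edgeR, 44.4% of those tested against 40.0% of all genes, with a median log2 fold change of -0.03 against 0.02 over all genes. The largest changes were lower Il7r (-1.77), Il10ra (-1.28), Il1rl2 (-1.23) and Il20rb (-1.12), chains of the IL-7, IL-10, IL-36 and IL-20 receptor families. Il10ra was the most abundant of them, at 346 CPM in Control, 511 CPM in IgE+BSA and 210.1 CPM in IgE+BSA+Luteolin. It was the 1 chain called upon stimulation (log2 fold change 0.56, adjusted p = 0.0448 by edgeR), with 0.42 without Control replicate 1 and 0.74 against it alone. Il1rl2 and Il20rb were low, at 2.79 and 3.81 CPM in IgE+BSA. Scaled by library size alone, 6 of these chains were higher and 7 lower, and the median was 0.08.

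Among 17 inhibitors of the JAK-STAT pathway, 2 were higher and 6 lower with luteolin by edgeR, 47.1% of the list against 40.0% of all genes. The feedback genes Socs3 and Cish, which STAT factors induce, had log2 fold changes of -1.86 and -1.03, and Socs6 and Sh2b3 of -1.02 and -0.56. Socs3 went from 26.8 CPM in Control to 60.8 CPM in IgE+BSA and 16.7 CPM with luteolin, and Cish from 312 to 638 and 312 CPM. Both were called higher upon stimulation by edgeR (adjusted p = 0.0402 and 0.00884). The log2 fold change of Socs3 was 1.17 with all Control libraries, 1.34 without Control replicate 1 and 0.77 against it alone, and that of Cish 1.03, 1.08 and 0.84. With library size alone 4 inhibitors were higher and 6 lower.

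Of 18 genes in ST2 and IL-1 receptor signaling, 16 passed the filter, with 1 higher and 6 lower under luteolin by edgeR, 43.8% of those tested against 40.0% of all genes. The E3 ligases Peli1 and Traf6 (log2 fold changes -1.24 and -1.21) and the inhibitor Tollip (-0.85) were lower and the adaptor Myd88 was higher (0.37). Traf6 went from 33.8 to 14.6 CPM and Myd88 from 46.4 to 60.1 CPM, while mean Il1rl1 was 5298 and 4973 CPM. Tollip was the 1 gene of this list called upon stimulation (124 to 212 CPM, log2 fold change 0.78, adjusted p = 0.0180 by edgeR), with 0.64 without Control replicate 1 and 0.96 against it alone. Under library size alone 5 genes of the list were higher and 4 lower.

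**Figure D5:**
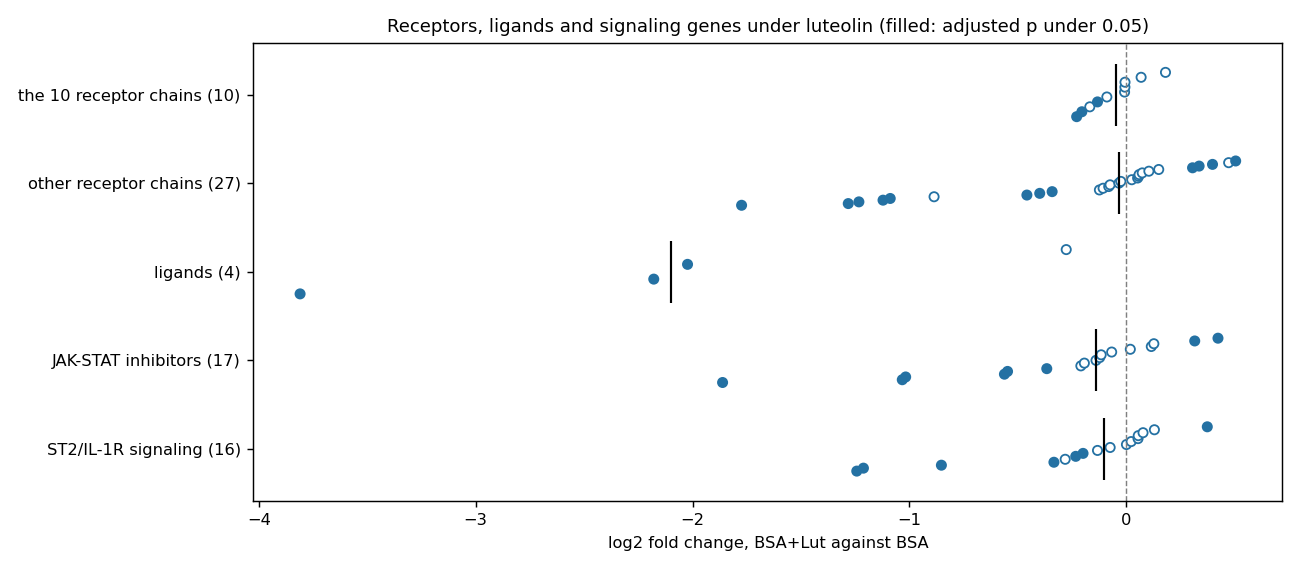
Log2 fold change of IgE+BSA+Luteolin against IgE+BSA (horizontal axis; BSA+Lut and BSA) for each tested gene of 5 lists, with the number tested in parentheses, filled points for an adjusted p under 0.05 by edgeR and a vertical bar at each list's median. The 10 receptor chains lie between -0.23 and 0.18, and the ligands reach -3.81; scaled by library size alone, all points shift to the right and the calls of small changes differ.

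Genes with the most similar pattern over the 9 libraries were taken for the 3 receptor chains with the largest log2 fold change under luteolin in either direction. For Csf2rb these were Gm16185, Rffl and Gdap10 (Pearson r of log2 CPM 0.991, 0.982 and 0.981). For Il2ra they were Zmat3, Grk5 and Car2 (0.986, 0.984 and 0.982). For Ifngr1 they were Gtf2h5, Ppdpf and Higd2a (0.979, 0.975 and 0.972). These values rank 11560 genes over 9 libraries that share Control replicate 1, and they carry no test.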

How the data were processed

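RNA of 9 BMMC libraries was sequenced, 3 per labeled group. The counts per Ensembl gene were deposited by the authors without normalization. Reads were cleaned with HTStream, aligned to mm10 with STAR 2.7.0f per the submitters' processing notes, and counted with a tool named htseq_count in the file header. The strand setting, annotation release and handling of reads with several matches are not given in the sources used here. Annotated genes overlap 7 of the 10 receptor genes, 3 of them on the opposite strand, and Gm20489, which spans Il2rg on the same strand, had 0 counts. Per library, Gm37881 on the strand of Il2ra had 11 to 127 counts and Gm44876 opposite Il4ra had 0 to 29.

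The tests ran in edgeR 4.0.16 under R 4.3.3. Genes with a median CPM above 1 over the 9 libraries (11560) entered its two-sided quasi-likelihood test after TMM scaling, fitted to the 6 libraries of each comparison, at an adjusted p under 0.05. CPM values are TMM-scaled. Exon lengths and positions came from GENCODE M21 (GRCm38). All 10 receptor genes and all their ligands were named, and in each other list up to 4 genes with the largest called change under luteolin. Partner chains of the receptors and single marker genes were named after their values were seen. Results for the list of JAK kinases and STAT factors are not reported here. Receptor genes and lists were chosen with earlier results of these data known. Alternatives were DESeq2 1.42.0, limma 3.58.1, other scalings, no filter, all 9 libraries in 1 fit, a replicate block, a gene length correction and each library left out. Control replicate 1 as the lone Control library was added after seeing the data. The fit was tested on simulated data for IgE+BSA+Luteolin against IgE+BSA alone, with far fewer changed genes than were called there. The comparisons with Control were not simulated. Replicates were distinct libraries, with a chi-square of at least 3.82 per degree of freedom between any pair.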

Additional observations from a re-analysis of the deposited data

How the results depend on the processing

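Of 585 values of 39 results under alternatives, 452 stayed the same. For log2 fold changes this meant the same direction and side of the threshold. For counts of called genes and for the beta chain share it meant a value near the one reported. Calls of receptor transcripts under luteolin moved with the scaling and with single libraries, and those against Control moved with Control replicate 1. Where a value moved and the alternative's construction does not show why, the cause was not tested. Whether the replicate numbers pair the libraries was not settled, and the reported fits used no block. The correlation of deviations between libraries with the same number was not above 0.1 for every pair in any comparison. For luteolin against IgE+BSA it was -0.02, 0.17 and 0.28, against -0.28 to 0.15 between different numbers. With 3 libraries per group this rule cannot decide the question. With the replicate number as a block, 144, 5582 and 212 genes were called in the 3 comparisons in the order below. The lone Control library was assumed to vary like the IgE+BSA or IgE+BSA+Luteolin libraries. Without Control replicate 1, 5207 and 6931 genes differed from Control in IgE+BSA and IgE+BSA+Luteolin, and without any other single library 90 to 137 and 2 to 47 did. Ligands below the filter had 0 to 26 counts per library and entered only the fit with no filter on low counts.

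In IgE+BSA against Control, the number of genes called, 378 as reported, became 1105 with all 9 libraries in 1 fit, 4892 with Control replicate 1 as the only Control library, 1227 with DESeq2, 618 with no filter on low counts and 144 with the replicate block. Receptor transcripts called there, 0 as reported, numbered 1 with all 9 libraries in 1 fit, DESeq2, a gene length correction, library size alone, no filter on low counts or upper-quartile factors and 7 with Control replicate 1 as the only Control library. Log2 fold changes turned sign with Control replicate 1 as the only Control library (Il1rap 0.57, Csf2rb 0.12, Csf2rb2 0.22, Il2ra 0.42, Il2rg -0.24) and no filter on low counts (Csf2rb2 0.040). Calls were gained with Control replicate 1 as the only Control library (Il1rl1 0.38, Il3ra -0.29, Il4ra -0.39, Ifngr1 -0.32), all 9 libraries in 1 fit (Il4ra -0.72), DESeq2 (Il4ra -0.75), a gene length correction (Il4ra -0.75), library size alone (Il4ra -0.90), no filter on low counts (Il4ra -0.66) and upper-quartile factors (Il4ra -0.82). With each library left out in turn, genes called ranged from 90 to 5207 and receptor transcripts called ranged from 0 to 7, and the log2 fold change ranged from 0.20 to 0.34 for Il1rl1, -0.49 to 0.00043 for Il1rap, -0.31 to -0.027 for Csf2rb, -0.17 to 0.089 for Csf2rb2, -0.91 to -0.57 for Il4ra, -0.51 to -0.071 for Il2ra, 0.042 to 0.56 for Il2rg, -0.74 to -0.37 for Il9r and -0.17 to 0.030 for Ifngr1.

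In IgE+BSA+Luteolin against IgE+BSA, the number of genes called, 4624 as reported, became 1093 with all 9 libraries in 1 fit. Receptor transcripts called there, 3 as reported, numbered 0 with all 9 libraries in 1 fit and 5 with the replicate block. Log2 fold changes turned sign with library size alone (Il1rl1 0.024, Il4ra 0.11, Il2rg 0.11, Il9r 0.11), a gene length correction (Il1rap 0.015, Il3ra -0.028, Il4ra 0.031), no filter on low counts (Il4ra 0.014, Il2rg 0.015, Il9r 0.012) and upper-quartile factors (Il4ra 0.071, Il2rg 0.072, Il9r 0.070). Calls were lost with all 9 libraries in 1 fit (Csf2rb -0.23, Csf2rb2 -0.13, Il2ra -0.21), library size alone (Csf2rb -0.11, Csf2rb2 -0.019, Il2ra -0.092), limma with a mean-variance trend (Csf2rb2 -0.13), no filter on low counts (Csf2rb2 -0.11) and upper-quartile factors (Csf2rb2 -0.055, Il2ra -0.13). Calls were gained with the replicate block (Il1rl1 -0.088, Ifngr1 0.18), library size alone (Il3ra 0.18, Ifngr1 0.29) and upper-quartile factors (Ifngr1 0.26). With each library left out in turn, receptor transcripts called ranged from 1 to 4, and the log2 fold change ranged from -0.13 to -0.066 for Il1rl1, -0.28 to -0.077 for Il1rap, -0.00042 to 0.14 for Il3ra, -0.16 to -0.10 for Csf2rb2, -0.044 to 0.043 for Il4ra, -0.25 to -0.17 for Il2ra, -0.047 to 0.048 for Il2rg, -0.069 to 0.067 for Il9r and 0.12 to 0.24 for Ifngr1.

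In IgE+BSA+Luteolin against Control, the number of genes called, 351 as reported, became 1251 with all 9 libraries in 1 fit, 2447 with Control replicate 1 as the only Control library, 1379 with DESeq2, 654 with a gene length correction, 811 with no filter on low counts and 212 with the replicate block. Receptor transcripts called there, 0 as reported, numbered 1 with all 9 libraries in 1 fit, DESeq2, a gene length correction or no filter on low counts and 3 with Control replicate 1 as the only Control library. Log2 fold changes turned sign with Control replicate 1 as the only Control library (Il1rap 0.42, Csf2rb2 0.10, Il2ra 0.24, Il2rg -0.23, Ifngr1 -0.12) and no filter on low counts (Il3ra 0.017). Calls were gained with Control replicate 1 as the only Control library (Il1rl1 0.31, Il4ra -0.38), all 9 libraries in 1 fit (Il4ra -0.72), DESeq2 (Il4ra -0.73), a gene length correction (Il4ra -0.68) and no filter on low counts (Il4ra -0.66). With each library left out in turn, genes called ranged from 2 to 6931 and receptor transcripts called ranged from 0 to 9, and the log2 fold change ranged from 0.15 to 0.24 for Il1rl1, -0.62 to -0.17 for Il1rap, -0.11 to 0.039 for Il3ra, -0.50 to -0.26 for Csf2rb, -0.27 to -0.046 for Csf2rb2, -0.88 to -0.58 for Il4ra, -0.68 to -0.28 for Il2ra, 0.046 to 0.59 for Il2rg, -0.71 to -0.38 for Il9r and 0.015 to 0.25 for Ifngr1.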
